A study of Mus musculus with 15 samples.

Results

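The 10 genes described here belong to the signals through which endothelial cells build new vessels. They are the VEGF receptor genes Kdr and Flt1, the angiopoietin gene Angpt2 and its receptor gene Tek, the Notch ligand gene Dll4, the apelin gene Apln and its receptor gene Aplnr, the tip cell gene Esm1, the prion-like gene Prnd and the chemokine-scavenging receptor gene Ccbp2, now called Ackr2. They were taken by symbol from the deposited gene tables, in which each of the 10 occurs once among 26145 genes. The choice was made with their endothelial levels at the 2 ages in view, so the age values are a description and carry no test. Single-cell RNA-sequencing was performed on the prefrontal cortex (PFC) of male C57BL/6N mice, with the tissue of 2 animals pooled per library. At 8 to 10 weeks (P60), animals had self-administered cocaine or saline through a jugular catheter (IVSA), and 2 libraries were made for each treatment at the end of maintenance, at 48 h and at 15 days of withdrawal. The saline animals went through the same food training, surgery and lever pressing. From mice of 3 weeks (P21), which had no IVSA, 3 libraries were made, although the methods name fewer P21 animals than 3 pooled pairs need. P21 and P60 tissue shared no library, the P21 cells were named apart, and only the P60 animals had the training, surgery and IVSA. Age therefore cannot be told apart from preparation or from that procedure.

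VEGF is the main signal that draws vessels into tissue. It acts through Kdr (VEGFR2), the receptor that drives endothelial growth, while Flt1 (VEGFR1) binds VEGF tightly, signals weakly and limits what reaches Kdr. At the front of a sprout, tip cells raise Dll4, Angpt2, Apln and Esm1, and Dll4 acts through Notch on the stalk cells behind to hold them back from the same fate. Angpt2 competes with Angpt1 at Tek (Tie2) and loosens the quiet vessel wall. In the postnatal brain, vessels go on sprouting for some weeks before the network becomes quiescent.

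Promoters of Apln, Kdr and Flt1 are shown because the levels of these genes differed with age in unlike ways in endothelial cells, with Apln and Kdr higher and Flt1 lower at P21. The sequences are RefSeq's for GRCm38.p6 and run from 250 bases before to 50 bases after the annotated start, 5′ to 3′ on the strand of the gene. Capitals mark GGAA or its reverse complement TTCC, the core of sites for ETS factors, a family that includes regulators of endothelial genes. An entry was found for 8 of the 10 genes, and none for Aplnr or Angpt2.

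Apln, chrX:48034804-48035103, minus strand: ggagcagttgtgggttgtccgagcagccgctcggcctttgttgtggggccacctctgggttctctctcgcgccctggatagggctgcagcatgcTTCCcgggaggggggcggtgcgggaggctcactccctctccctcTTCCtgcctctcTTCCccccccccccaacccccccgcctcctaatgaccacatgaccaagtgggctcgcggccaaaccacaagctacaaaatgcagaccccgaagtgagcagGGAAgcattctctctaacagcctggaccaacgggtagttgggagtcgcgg
Kdr, chr5:75978406-75978705, minus strand: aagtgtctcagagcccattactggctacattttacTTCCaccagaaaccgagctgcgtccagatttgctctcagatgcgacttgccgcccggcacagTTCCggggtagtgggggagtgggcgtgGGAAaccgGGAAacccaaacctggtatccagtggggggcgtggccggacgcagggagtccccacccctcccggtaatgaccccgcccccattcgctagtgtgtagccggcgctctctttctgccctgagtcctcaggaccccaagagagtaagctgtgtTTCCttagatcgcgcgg
Flt1, chr5:147725962-147726261, minus strand: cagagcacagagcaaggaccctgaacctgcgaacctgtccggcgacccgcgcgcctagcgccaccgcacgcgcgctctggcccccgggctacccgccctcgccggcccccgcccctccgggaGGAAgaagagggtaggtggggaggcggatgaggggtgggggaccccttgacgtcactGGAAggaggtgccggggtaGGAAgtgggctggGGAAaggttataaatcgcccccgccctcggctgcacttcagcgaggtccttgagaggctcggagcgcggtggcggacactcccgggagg

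The core occurred 4 times in the Apln window, 5 times in that of Kdr and 4 times in that of Flt1, and the longer form CCGGAA once in the Kdr window. Among 32544 mouse promoter windows of the same length, 95.96% held the core on either strand, with a median of 3 sites, and 14.98% held the longer form, which contains the core. TATAAA occurred in the Flt1 window and in neither of the other two, and in 13.57% of all windows. A match of letters is a description and does not show that a factor binds.

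The authors' endothelial class (Endo) held 5613 of 35360 retained cells, 2047 at P21, 1858 in P60 saline and 1708 in P60 cocaine libraries. Counts are of unique molecular identifiers (UMIs), which mark single captured RNA molecules. They were summed over the Endo cells of each library, 783263 to 3734130 UMIs per library, and are given as counts scaled to the same total of UMIs (CPM). The median Endo cell had 3483 UMIs at P21 and 3893.5 in saline. Endo cells made up 20.0% ± 3.73 (SD, n = 3) of retained cells at P21 and 17.0% ± 5.14 (n = 6) in saline, a difference of 2.99 percentage points (exact permutation test, two-sided, p = 0.417) that ranged from 1.57 without P21 replicate 2 to 5.10 without P21 replicate 1 and was 1.80 without saline 48 h replicate 2 and 1.96 without saline 15-day replicate 1. The class carried its markers, and the 15 endothelial marker genes summed to 17369 to 20019 CPM at P21 and 20113 to 26579 CPM in saline. The class was not free of other cells: pericyte genes summed to 5263 to 6408 CPM at P21 and 7015 to 9947 CPM in saline. Red blood cell genes summed to 92530 to 129510 CPM at P21 and 53282 to 88424 CPM in saline. Oligodendrocyte genes summed to 325 to 1090 CPM at P21 and 11 to 333 CPM in saline, neuron genes to 380 to 882 and 60.5 to 708 CPM, and astrocyte genes to 401 to 472 and 107 to 446 CPM. Of these 3 lists 1 gene passed the test, 1 of 4 astrocyte genes, whereas all 4 red blood cell genes rose and 4 of 15 endothelial markers fell at P21. Age differences with red blood cell genes or mural-dominant cells left out are given below. The part of such RNA in the age differences was otherwise not tested.

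Aplnr and Apln, the receptor and the ligand of one pathway, were both far higher in P21 than in P60 Endo cells. Aplnr stood at 52.2, 74.9 and 71.4 CPM in the 3 P21 libraries and at 0 in all 12 P60 libraries. No Aplnr UMI was found among the 1858 saline or the 1708 cocaine Endo cells, against 567 at P21, which makes the pooled P21 level of 64.3 CPM at least 177-fold higher than saline and at least 338-fold higher than all P60 libraries, with 3 UMIs over the group as the floor. The gene was counted at P60, since excitatory neurons of that age gave 16 Aplnr UMIs. Apln stood at 54.9, 74.9 and 93.8 CPM at P21 and between 0 and 2.88 CPM in the 6 saline libraries. The groups did not overlap, and the P21 mean of 74.5 ± 19.5 CPM (SD, n = 3) compared with 1.37 ± 1.21 CPM (n = 6). The fitted difference, P21 minus saline, was 5.70 on the log2 scale (SE 0.38), or 52.1-fold, on 634 against 12 UMIs.

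Prnd and Ccbp2 showed the same split between ages at lower levels. Prnd encodes doppel, a prion-like protein of developing brain endothelium, and measured 18.7, 36.9 and 48.5 CPM at P21. In the saline libraries its highest level was 2.40 CPM and 3 of the 6 libraries held no UMI, for a fitted log2 difference of 6.04 (SE 0.54). Prnd shares its strand and part of its annotated span with the prion gene Prnp, which itself gave 362 to 443 CPM at P21 and 243 to 371 CPM in saline. Ccbp2 encodes a decoy receptor that takes up inflammatory CC chemokines. It measured 9.11, 20.8 and 20.5 CPM at P21 and 0 in all 12 P60 libraries, so that its pooled 15.8 CPM was at least 43.3-fold above saline.

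Angpt2 was higher at P21 but remained detectable at P60. Its P21 levels were 51.7, 66.3 and 75.3 CPM, and the saline libraries ranged from 7.42 to 19.8 CPM with a median of 10.7 CPM. Every P21 library lay above every saline library, and the fitted difference was 2.47 (SE 0.24), or 5.56-fold. Tek, the receptor for Angpt2, was slightly lower at P21 in CPM. Tek measured 216, 227 and 220 CPM at P21 and 247 to 345 CPM in saline, a difference of −0.26 (SE 0.12) that was under the 1.5-fold minimum used for calls. With only the Endo cells whose deposited cluster was also endothelial, the Tek difference was −0.07. The 15 endothelial markers had a median difference of −0.34, past that of Tek in all Endo cells. Per 100 UMIs of that marker list, Tek gave 1.18 at P21 and 1.11 in all P60 libraries.

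The VEGF receptors differed in opposite directions. Kdr measured 714, 640 and 742 CPM at P21 and 246 to 344 CPM in saline, with means of 699 ± 53.0 CPM (n = 3) and 307 ± 38.3 CPM (n = 6). The fitted difference was 1.27 (SE 0.12), or 2.41-fold, and the groups were well apart. Flt1, the gene by which the study named the class, measured 1759, 1527 and 1612 CPM at P21 and 2422 to 2739 CPM in saline, a difference of −0.59 (SE 0.10). All 3 P21 libraries lay below all 6 saline libraries for Flt1, but the size of the difference is barely past 1.5-fold. It fell under 1.5-fold in 9 of the 20 alternatives run, of which the one with no fold minimum could not move it. Among the 9 were DESeq2 (−0.58), leaving out P21 replicate 2 (−0.54) and keeping only Endo cells whose cluster was also endothelial (−0.41). As a result, 42.5 Kdr UMIs were counted per 100 Flt1 UMIs in Endo at P21, and 11.8 in all P60 libraries. Per 100 UMIs of the endothelial list, Flt1 gave 8.82 at P21 and 11.1 in all P60 libraries.

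Dll4 did not separate the ages in CPM, and Esm1 was hardly counted. Dll4 measured 49.0, 44.7 and 42.6 CPM at P21 and 34.0 to 45.6 CPM in saline, with overlapping groups and a difference of 0.31 (SE 0.13). Per 100 UMIs of the endothelial list, Dll4 gave 0.246 at P21 and 0.152 in all P60 libraries. Esm1, a secreted proteoglycan known as a tip cell marker, gave 3 UMIs in P21 Endo cells and 3 in saline, too few to compare. Esm1 was therefore the 1 member of 10 that did not pass the low-count filter in the age comparison. Of the 9 that did, 6 (Aplnr, Apln, Prnd, Ccbp2, Angpt2, Kdr) were above saline and 1 (Flt1) below by the rule used across all genes, adjusted p below 0.05 and over 1.5-fold. Over all 10599 genes tested, 6.83% passed that rule upward and 6.55% downward. The same 6 did not overlap saline upward, against 7.79% of all genes, and Flt1 and Tek did not overlap downward, against 13.7%. The members were chosen on this contrast, so nothing is read from these shares. The plot of Endo levels by library shows the 10 genes side by side.

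**Figure D1:**
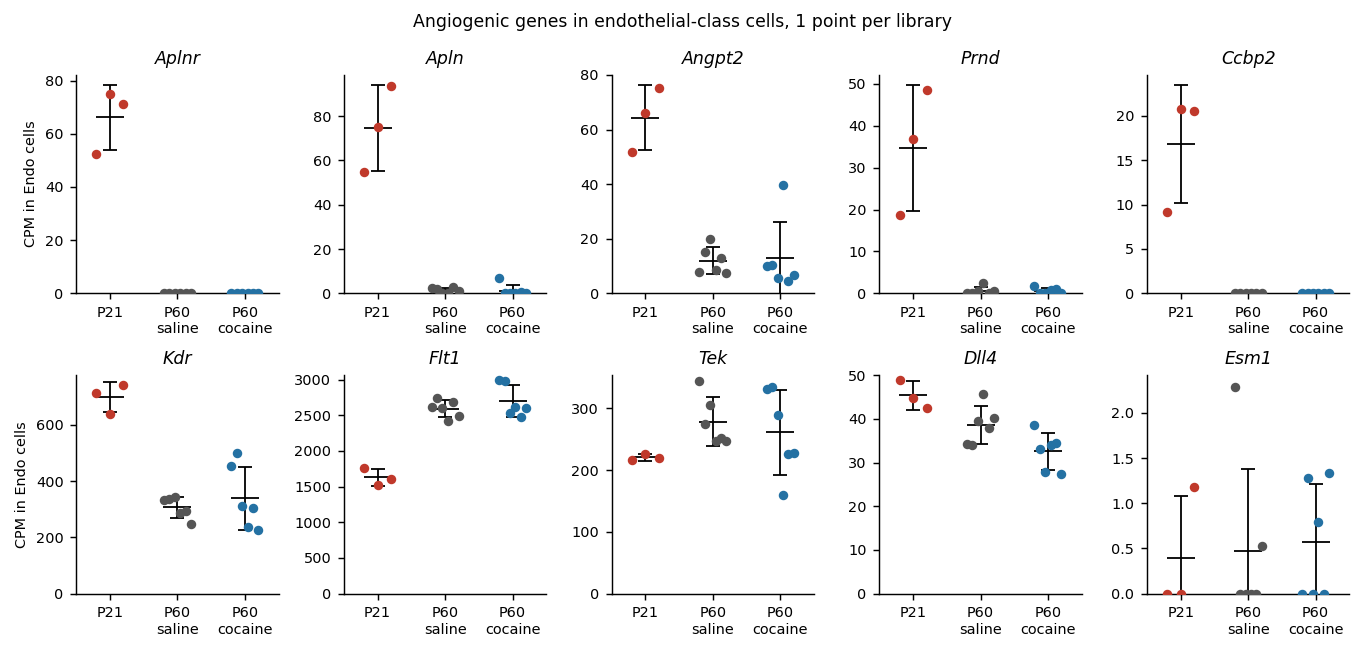
Level of each of the 10 genes in endothelial cells, in CPM (vertical axis, linear, from 0), for the 3 P21, 6 P60 saline and 6 P60 cocaine libraries; each point is 1 library, and bars give mean ± SD. Aplnr and Ccbp2 sit at 0 in all 12 P60 libraries, Kdr sits at 640 to 742 CPM at P21 against 246 to 344 CPM in saline, and Flt1 is lower at P21.

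The partners of these genes were followed in the lists of their pathways, from which the members themselves were left out. Among 7 tested VEGF ligands and receptors, only Nrp1, a coreceptor that strengthens Kdr signalling, passed the rule. Nrp1 rose from 226 ± 22.2 CPM in saline (n = 6) to 446 ± 32.9 CPM at P21 (n = 3), a log2 difference of 1.06 (SE 0.10). The lymphatic receptor gene Flt4 differed by −0.29 (SE 0.13) and Pgf by 0.09 (SE 0.31), and neither passed. Vegfa itself gave 16 UMIs at P21 and 8 in saline Endo cells. The median over the list was 0.09, beside −0.0003 over all genes.

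No partner in the angiopoietin-Tie list passed. Tie1, the coreceptor of Tek, differed by −0.34 (SE 0.13), and Ptprb, the phosphatase that restrains Tek, by −0.24 (SE 0.11), while the Tek agonist gene Angpt1 gave 18 UMIs at P21 and 17 in saline. In the Notch list 2 of 11 tested genes rose at P21. The Notch target Hey1 measured 91.8 ± 8.77 CPM at P21 and 35.2 ± 8.04 CPM in saline, a difference of 1.46 (SE 0.17), and Lfng, which modifies Notch receptors, differed by 0.65 (SE 0.20). The other Notch target Hes1 differed by −0.91 (SE 0.30) and did not pass, and the receptors Notch1 (−0.16, SE 0.10) and Notch4 (−0.41, SE 0.27) did not pass either.

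Tip cell genes outside the 10 moved mostly upward. Of 12 tested, 7 rose and 1 fell, with a list median of 0.98. Those that rose were the basement membrane genes Col4a1 (1.79), Col4a2 (2.1), Nid2 (1.95) and Lama4 (0.63), with Trp53i11 (2.75), the IGF-binding protein gene Igfbp3 (2.09) and the peptide hormone gene Adm (1.33). Pdgfb, which recruits pericytes, fell by 0.59 on the log2 scale. Cxcr4, a chemokine receptor of tip cells, gave 26 UMIs at P21 and 6 in saline. The list was put together with earlier results of these data known, so its direction is no separate evidence. In the endothelial transcription factor list 3 of 16 fell, Sox18 (−2.17), Sox17 (−0.72) and Epas1 (−0.72), and none rose. In the BMP and TGF-beta list 2 of 11 fell, Acvrl1 (−0.90) and Smad7 (−0.74).

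**Figure D2:**
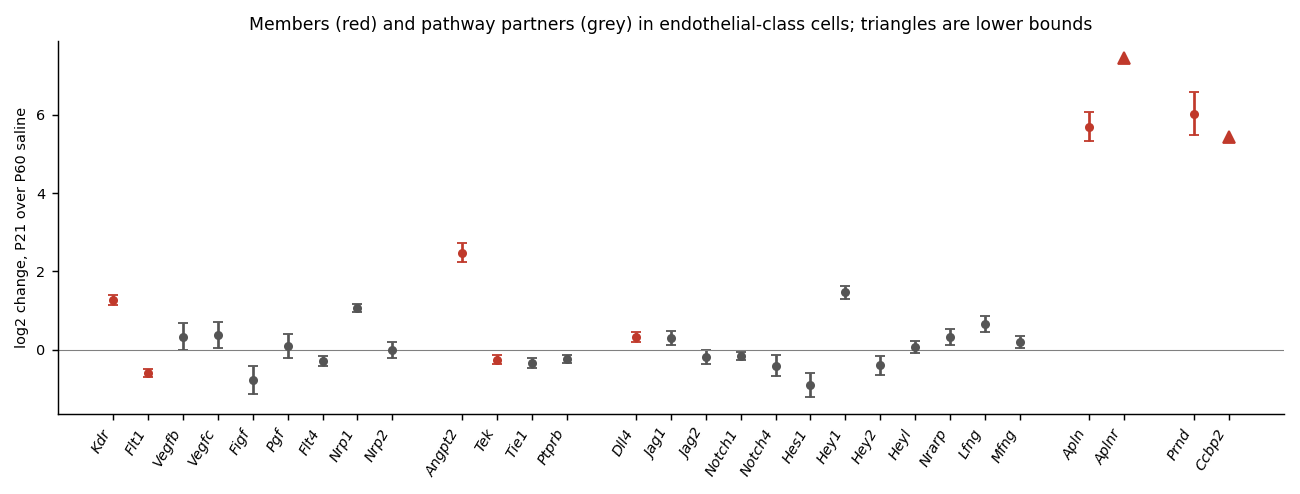
Log2 difference in endothelial level, P21 minus P60 saline (vertical axis), with bars of 1 SE, for the tested genes of the VEGF, angiopoietin-Tie and Notch lists with the other tested members. Red marks members, grey marks partners and triangles mark the lower bounds of Aplnr and Ccbp2. Kdr and Nrp1 lie above 1, Flt1 lies at −0.59, and Tek, Tie1 and Ptprb lie slightly below 0.

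Some genes that mark segments of the vessel tree also moved with age, beside 6.83% of all genes called upward and 6.55% downward. Of 9 arterial genes 5 fell at P21, among them Gkn3 (−3.34), Alpl (−2.77) and Bmx (−2.28), and Hey1 alone rose. Of 8 venous genes 2 fell, Vcam1 (−2.0) and Ephb4 (−0.82), and of 6 capillary genes Slc16a1 (1.55), a lactate transporter, rose. All 4 smooth muscle genes tested and 3 of 10 pericyte genes fell, and 4 of 6 fibroblast genes rose. Without the cells in which mural and fibroblast genes outweighed endothelial ones, 221 of 2047 at P21 and 239 of 1858 in saline, the difference was 1.21 for Kdr, −0.61 for Flt1, 5.66 for Apln and −0.27 for Tek, close to the values in all Endo cells. With the red blood cell genes left out of the totals, it was 1.26 for Kdr, −0.60 for Flt1 and −0.26 for Tek. In the cell cycle list Cdk1 was the only called gene (4.96, SE 0.58) of 5 tested.

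The share of cells with at least 1 UMI showed whether many cells or few carried these genes. Aplnr was detected in 20.2% of P21 Endo cells (median 3483 UMIs), against 0.229% of the deeper P21 excitatory neurons (median 8266.5 UMIs). It was detected in 0 of 1858 saline Endo cells, which by the floor of 3 counts allows a share of cells with a UMI, not of cells expressing the gene, of up to 0.161%. Most of the positive cells, 304 of 413, held a single Aplnr UMI. Apln was found in 13.0% of P21 cells and 0.538% of saline cells, and was more concentrated, with 84 of 267 positive cells holding 3 or more UMIs and up to 13 in 1 cell. Kdr was found in 82.7% and 63.2%, and Flt1 in 96.3% and 98.5%, so both receptors were present in most cells at both ages. Angpt2 was found in 14.2% of P21 cells and 4.47% of saline cells, Prnd in 8.74% and 0.215%, and Ccbp2 in 5.81% and 0%. After each cell was thinned to 2000 UMIs, which kept 1820 P21 and 1850 saline cells and left out 227 and 8, Kdr was found in 69.6% and 40.2%, Angpt2 in 8.85% and 2.76%, and Apln in 8.74% and 0.270%. The order of the ages was the same before and after thinning for each of these genes.

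Within P21 Endo cells, Apln marked a minority in which several other members were concentrated. Of 2047 cells, 1477 (72.2%) had neither Apln nor Aplnr, 303 (14.8%) had Aplnr only, 110 (5.37%) had both and 157 (7.67%) had Apln only. Angpt2 measured 28.3 CPM in cells with neither, 38.1 CPM with Aplnr only, 263 CPM with both and 222 CPM with Apln only. Its high level thus went with Apln and not with Aplnr alone. In the 3 libraries Angpt2 measured 199, 252 and 277 CPM in cells with Apln and 27.7 to 34.6 CPM in cells without it. Prnd was also higher in cells with Apln, at 91.8, 130 and 164 CPM against 6.85, 18.7 and 25.1 CPM without it. So was Ccbp2, at 36.3, 57.6 and 65.8 CPM against 4.67, 13.6 and 11.4 CPM. With Aplnr only, Prnd was above its level with neither in each library, at 31.0 against 11.3 CPM over all 3. Ccbp2 with Aplnr only measured 12.9 CPM over all, against 8.12 CPM with neither, and was not higher in replicate 3. These sets were formed and described in the same cells, so no test is given. Cells with Apln also held less of the endothelial list (15708 against 19248 CPM), and in 2 of the 3 libraries more of the pericyte list (6144 against 5703 CPM over all) and of the cell cycle list (175 against 120 CPM over all). In P21 cells in which mural and fibroblast genes outweighed endothelial ones, Apln measured 41.1, 117 and 186 CPM, against 56.0, 69.5 and 81.9 CPM in the other Endo cells. Angpt2 and Prnd were likewise higher there in replicates 2 and 3 and lower in replicate 1. Ccbp2 was higher there in all 3 replicates, at 18.7, 41.3 and 31.0 CPM against 8.37, 18.1 and 19.1 CPM. The part of these in the pattern was not tested.

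The receptors were spread differently over the sets. Kdr was lowest in cells with neither gene (622 CPM) and reached 841 CPM with Aplnr only and 965 CPM with both, whereas Flt1 was highest with neither (1765 CPM) in all 3 libraries and measured 1257 CPM with Apln only. Tek measured 224 CPM with neither, 253 CPM with Aplnr only, 157 CPM with both and 172 CPM with Apln only. Tek was thus lower in the sets with Apln, where its ligand Angpt2 was higher. With Aplnr only, Tek and Angpt2 were both above cells with neither when the libraries were pooled. Dll4 was lowest in cells with Aplnr only in all 3 libraries (29.7 CPM over them), and its order among the other sets differed between libraries. The amino acid transporter gene Slc38a5, on the venous list, was highest with Aplnr only (570 CPM, against 309 CPM with neither). The arterial genes Bmx and Gkn3 measured 11.8 and 54.8 CPM with neither, and no UMI of either was found in cells with Aplnr only or with both. Cells with detected genes were deeper, with a median of 3192 UMIs for neither, 4333 for Aplnr only, 4789 for both and 3928 for Apln only. At 2000 UMIs per cell, Angpt2 was still found in 38.4% of the 159 cells with Apln and 6.02% of the 1661 without, Prnd in 23.3% and 3.25%, Ccbp2 in 13.8% and 2.05%, and Tek in 22.0% and 34.4%. Split by Aplnr instead, Angpt2 was found in 13.8% of the 196 cells with it and 8.25% of the 1624 without. In the same split Prnd was found in 10.2% and 4.37%, Ccbp2 in 8.16% and 2.46%, and Tek in 38.8% and 32.6%.

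**Figure D3:**
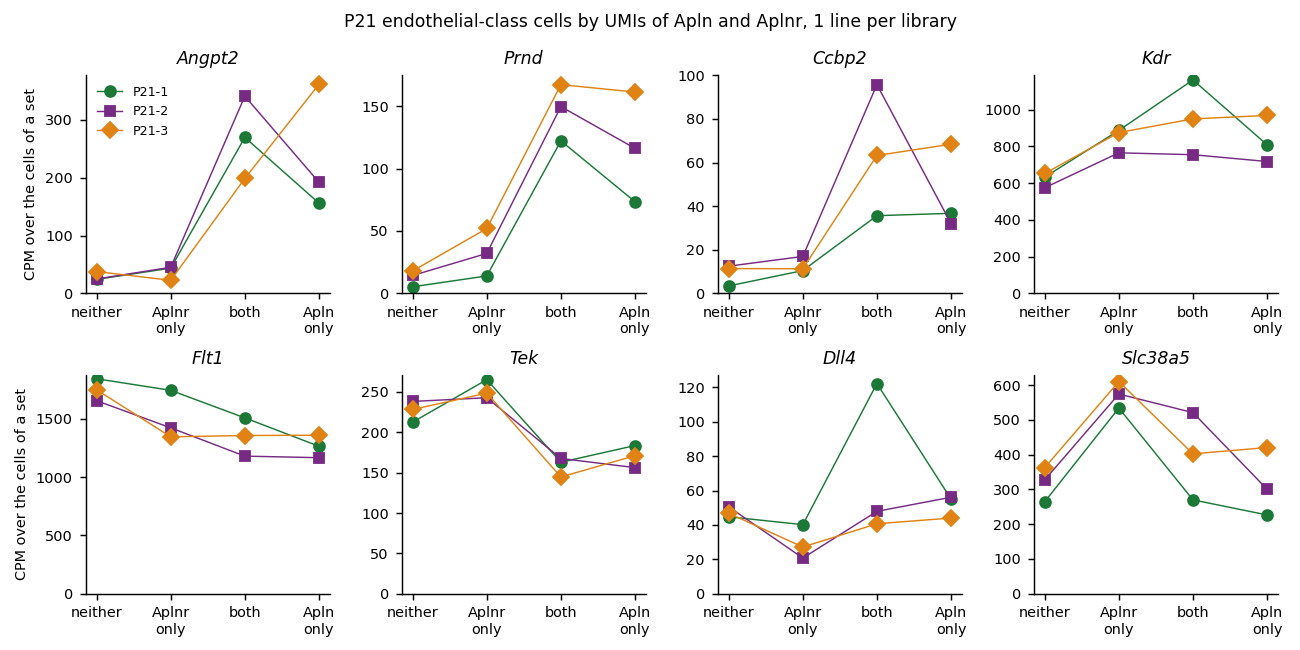
Summed level in CPM (vertical axes, from 0) of Angpt2, Prnd, Ccbp2, Kdr, Flt1, Tek, Dll4 and Slc38a5 over P21 endothelial cells with neither Apln nor Aplnr, Aplnr only, both, or Apln only (horizontal axis); each line is 1 of the 3 P21 libraries. Angpt2, Prnd and Ccbp2 are high in the sets with Apln, and Flt1 and Tek are lower in them than in cells with neither.

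The P60 Endo cells carry 13 deposited subclusters, each seen in 11 or 12 libraries, and the P21 cells carry none. Aplnr and Ccbp2 were at 0 in all 13. Kdr ranged from 145 CPM in Endo_2, where the summed arterial list was highest (4732 CPM), to 427 CPM in Endo_7. Dll4, which marks arteries as well as tips, ranged from 15.9 CPM in Endo_13 to 63.5 CPM in Endo_1, the subcluster with the next highest arterial sum (3971 CPM). Even the highest Kdr level of a P60 subcluster was below the lowest P21 library (640 CPM). Flt1 ranged from 1425 CPM in Endo_13 to 3289 CPM in Endo_1, and Angpt2 from 0 in Endo_3 and Endo_8 to 32.8 CPM in Endo_9. The Endo_9 value rested on cocaine 48 h replicate 2, without which it was 14.7 CPM, below 4 other subclusters, among them Endo_11 (20.5 CPM) and Endo_7 (18.1 CPM). The subclusters were made from these genes among others, so their differences are a description.

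Outside the endothelium, 4 members were higher in another class than in P60 Endo cells, namely Apln, Ccbp2, Esm1 and, with 16 UMIs in all, Aplnr. The other 6 were highest in Endo. Apln in P60 astrocytes gave 312 UMIs, more than the 21 in all P60 Endo cells, and measured 26.2 to 121 CPM with a mean of 64.0 ± 26.8 CPM (SD, n = 11 libraries with at least 10 cells). It was found in 17.7% of P60 astrocytes (median 3214 UMIs per cell), against 0.345% of microglia (median 2456 UMIs), and in 11.5% against 0.301% at 2000 UMIs per cell. P60 oligodendrocytes gave 144 Apln UMIs, or 28.1 ± 11.4 CPM (n = 12), in 8.49% of cells. At P21 Apln in astrocytes measured 14.6 to 57.1 CPM and in oligodendrocytes 6.97 to 18.8 CPM. P21 minus saline was −0.69 (SE 0.41) in astrocytes and −1.02 (SE 0.40) in oligodendrocytes, and neither was called. In astrocytes the value rested in part on cells whose deposited cluster belongs to another class. Without them Apln measured 89.4, 49.2 and 8.86 CPM in the 3 P21 libraries, the last on 1 UMI, and P21 minus saline was −0.07 (SE 0.48). Of astrocytes, oligodendrocytes and Endo, P60 Apln was therefore highest in astrocytes and lowest in Endo. The astrocyte and oligodendrocyte ranges overlapped (26.2 to 121 and 7.87 to 45.0 CPM). Pooled over P60, newly formed oligodendrocytes (1.70 CPM, 3 UMIs) and microglia (1.25 CPM, 5 UMIs) were near Endo (1.33 CPM).

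Ccbp2 was absent from P60 Endo cells but present at both ages in excitatory neurons. There it gave 287 UMIs at P60 (0.967 to 2.69 CPM, mean 1.59 ± 0.457) and 66 at P21 (mean 1.29 ± 0.217), in 1.92% of P60 cells with a median of 12454.5 UMIs. At 2000 UMIs per cell that share was 0.408%, against 0.0851% in inhibitory neurons and 0.0671% in astrocytes. The excitatory difference between ages was −0.26 (SE 0.28). Kdr in P60 oligodendrocytes gave 45 UMIs beside 39 of Flt1, whereas P60 Endo gave 4912 beside 41512. The 2 receptors therefore did not keep the endothelial ratio there. Angpt2 gave 14 UMIs in P60 oligodendrocyte precursors (0 to 13.9 CPM) and 179 in excitatory neurons (0.979 ± 0.263 CPM). Esm1 was highest in inhibitory neurons, with 14 UMIs at P21 (2.27 ± 0.880 CPM) and 10 at P60.

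P21 astrocytes and microglia held more Kdr and Flt1 than their P60 counterparts, and also more of the other endothelial genes. Flt1 measured 80.5 to 223 CPM in P21 astrocytes and 109 to 365 CPM in P21 microglia, where the endothelial list summed to 1156 and 1982 CPM over all cells, against 290 and 196 CPM at P60. Of these P21 cells, 99 of 405 astrocytes and 147 of 329 microglia carry a deposited cluster that belongs to another class. Without them Flt1 was 38.9 and 38.2 CPM and Kdr 14.9 and 15.7 CPM, and Apln in astrocytes was 74.3 CPM. Both receptors were also higher in P21 excitatory neurons, at far lower levels, with Kdr at 2.32 to 3.58 CPM against 0.224 to 0.585 CPM in saline and Flt1 at 4.96 to 5.84 CPM against 1.12 to 3.88 CPM. The endothelial list there summed to 166 CPM over all P21 cells and 135 CPM over all P60 cells. The endothelial genes Cldn5 and Pecam1 measured 9.756 and 1.521 CPM over the same P21 cells, and 2.101 and 0.549 CPM at P60. Of the 5688 P21 cells, 30 carry a cluster of another class. With such cells left out at both ages, Kdr was 2.33 CPM at P21 and 0.359 CPM at P60. Flt1 was then 4.47 and 2.32 CPM. The part of endothelial RNA in these differences was not tested.

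**Figure D4:**
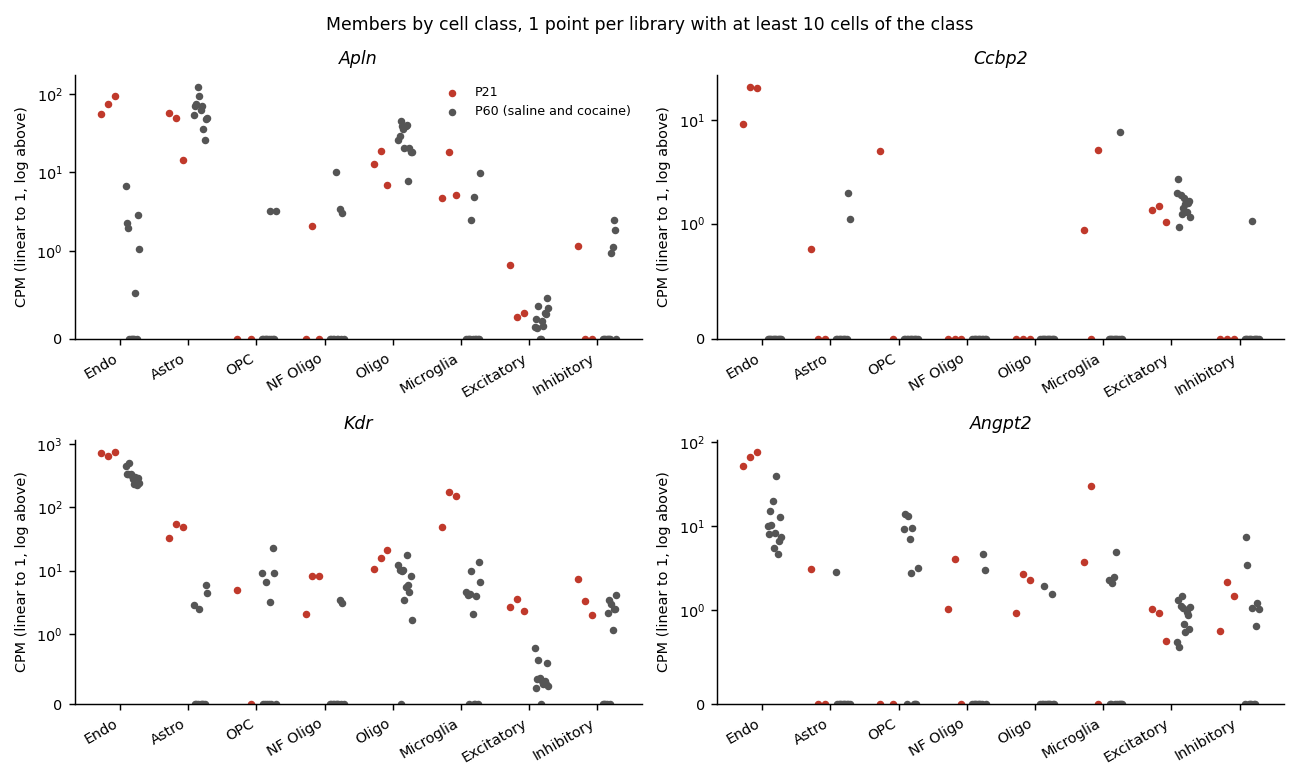
Levels of Apln, Ccbp2, Kdr and Angpt2 in CPM (vertical axis, linear near 0 and logarithmic above) in the 8 deposited cell classes, for P21 and for all P60 libraries with at least 10 cells of the class; each point is 1 library. At P60 Apln is highest in astrocytes and oligodendrocytes, and Ccbp2 is seen in excitatory neurons and not in endothelial cells.

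Cocaine was compared with saline within each time point in a fit of all 12 P60 libraries by edgeR's quasi-likelihood test with Benjamini-Hochberg adjustment. The genes were chosen with the age contrast in view, and earlier results of these data were known. Only Kdr, Flt1, Tek, Dll4 and Angpt2 passed the low-count filter at P60. None of the 5 was called at maintenance, 48 h or 15 days, in their mean, or in the test of treatment by time point. Over all 10063 genes the shares called were 0%, 0.0199% (2 genes), 0.139% (14 genes), 0% and 0% by edgeR, DESeq2 called 0, 2, 7, 0 and 0 genes, and unadjusted p by edgeR was below 0.05 for 448, 549, 477, 595 and 466 genes.

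Kdr at the end of maintenance came closest. It measured 455 and 499 CPM in the cocaine libraries and 335 and 336 CPM in the saline libraries, which did not overlap, as was the case for 31.7% of all genes tested in that comparison of 2 with 2. The log2 difference was 0.53 (SE 0.16), or 1.45-fold, with an adjusted p of 0.874 by edgeR. At 48 h Kdr measured 312 and 236 CPM after cocaine and 344 and 286 CPM after saline, a difference of −0.14 (SE 0.17), and at 15 days the difference was −0.01 (SE 0.16). The edgeR test of whether the Kdr difference changed between time points gave an unadjusted p of 0.0174 and an adjusted p of 1. Flt1 in the same maintenance libraries measured 2992 and 2986 CPM after cocaine and 2609 and 2739 CPM after saline, a difference of 0.19 (SE 0.13). Averaged over time points, cocaine minus saline was 0.13 (SE 0.09) for Kdr, 0.09 (SE 0.08) for Flt1, −0.09 (SE 0.11) for Tek, −0.19 (SE 0.14) for Dll4 and −0.10 (SE 0.45) for Angpt2.

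Angpt2 was the least certain, and 1 library stood apart for it. At 48 h it measured 5.56 and 39.6 CPM after cocaine and 19.8 and 8.40 CPM after saline, a difference of 0.75 (SE 0.67) that became −1.40 without cocaine 48 h replicate 2. In that library 24 of the 50 Angpt2 UMIs came from 9 of its 40 cells in subcluster Endo_9. The same library held 6208 CPM of the summed venous list, against 691 to 1273 CPM in the other P60 libraries, most of it Lcn2 (4830 CPM, against 2.55 to 196 CPM), an iron-trapping protein gene that rises in inflamed endothelium. On the same list Darc (305 CPM, against 0 to 49.3 CPM) and Vwf (320 CPM, against 151 to 305 CPM) were also above the other libraries, and the other 5 of its 8 genes lay within their range. The part of this in the Angpt2 value was not tested. Tek at 48 h was lowest in that library too (160 CPM), and its difference of −0.26 (SE 0.19) became 0.11 without it. The 5 untested members gave few or no Endo UMIs in either P60 group, with 12 Apln UMIs in saline and 9 in cocaine, 4 and 5 of Prnd, 3 and 4 of Esm1, and none of Aplnr or Ccbp2.

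**Figure D5:**
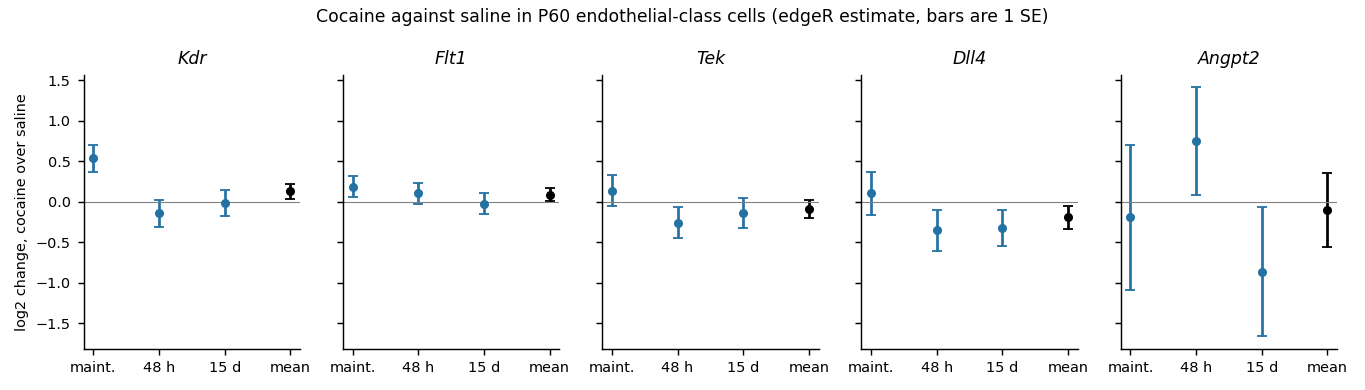
Log2 difference in endothelial level, cocaine minus saline (vertical axis), with bars of 1 SE, for Kdr, Flt1, Tek, Dll4 and Angpt2 at maintenance, 48 h and 15 days and as their mean (horizontal axis); each difference within a time point rests on 2 libraries a group. Kdr at maintenance (0.53) is the largest relative to its error, and the Angpt2 bars are the widest.

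Cocaine was also tested where a member had enough counts in another class. Averaged over time points, Apln in oligodendrocytes differed by −0.23 (SE 0.27, edgeR adjusted p = 0.951), where 0.0466% of genes were called. In astrocytes the mean difference of Apln was −0.28 (SE 0.21). By time point it was −0.18 (SE 0.38) at maintenance, −0.13 (SE 0.36) at 48 h and −0.54 (SE 0.34) at 15 days. Saline maintenance replicate 2 held 8 astrocytes and was left out, so that group rests on 1 library. Of 40 such member tests, 1 passed, Flt1 in inhibitory neurons at 15 days. Flt1 gave 65 and 47 UMIs in 203 and 137 saline cells and 28 and 12 UMIs in 212 and 145 cocaine cells, a log2 difference of −1.68 (SE 0.31, edgeR adjusted p = 0.0051), where 0.779% of genes were called. Most of these UMIs came from few cells that also held endothelial RNA. Inhibitory cells with 10 or more UMIs of the endothelial list gave 59, 45, 24 and 8 of the 65, 47, 28 and 12, and without those cells Flt1 no longer passed the low-count filter. With no filter the difference was −0.19 (SE 0.89, edgeR adjusted p = 1) without those cells and −1.65 (SE 0.33, edgeR adjusted p = 0.00017) with them. The call was also lost when any 1 of the 4 libraries was left out (edgeR adjusted p 0.077 to 0.276), with differences of −2.09 to −1.45, and DESeq2 gave −1.74 with no adjusted p. The share of Endo cells itself was 13.9% ± 2.85 after cocaine and 17.0% ± 5.14 after saline (n = 6 each), a difference of −3.12 percentage points (exact permutation test within time points, two-sided, p = 0.176). Without saline 48 h replicate 2 it was −5.09 points (exact p = 0.037), and without saline 48 h replicate 1 it was −1.14 points (exact p = 0.583).

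Genes outside the 10 whose level followed each member most closely over the 15 libraries were found by Pearson correlation of log2(CPM + 1) in Endo sums. The libraries differ in age and preparation, so a gene with a large age difference is near any other, and the values are a description. Between members, the highest value was that of Aplnr with Ccbp2 (r = 0.995), both at 0 in all P60 libraries. Outside the members, Aplnr was nearest to the collagen IV gene Col4a2 (r = 0.984; 556 to 624 CPM at P21, 126 to 194 CPM at P60), Ccbp2 to the laminin gene Lamb1 (r = 0.980), Prnd to the matrix protein gene Sparc (r = 0.95) and Apln to Vash1 (r = 0.969), which encodes a secreted inhibitor of vessel growth. Kdr was nearest to its coreceptor gene Nrp1 (r = 0.938; 408 to 467 CPM at P21, 200 to 282 CPM at P60). Flt1, alone in being lower at P21 past 1.5-fold, was nearest to Itih5 (r = 0.957; 174 to 199 CPM at P21, 534 to 787 CPM at P60), and Tek was nearest to the beta-catenin gene Ctnnb1 (r = 0.961). Dll4, whose groups overlapped, had the weakest nearest gene, Cchcr1 (r = 0.848), and Angpt2 was nearest to Ctsw (r = 0.914).

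The genes lie apart on the genome, on NCBIM37 as the counts were made. Kdr (chr5:76328852-76374483) and Flt1 (chr5:148373180-148537587) share chromosome 5, both on the minus strand. Aplnr (chr2:84976517-84980079), Dll4 (chr2:119151520-119161698) and Prnd (chr2:131735693-131781866) share chromosome 2, all on the plus strand. Apln lies at chrX:45378323-45388030, Angpt2 at chr8:18690263-18741562, Tek at chr4:94405980-94541667, Esm1 at chr13:113999867-114008306 and Ccbp2 at chr9:121807473-121820182. All 10 are annotated as protein coding. Angpt2 overlaps Mcph1 on the opposite strand at its 3′ end, where the captured tags lie, and Mcph1 measured 2.37 to 6.27 CPM in P21 and up to 7.42 CPM in saline Endo cells. Esm1 likewise overlaps Gzmk on the opposite strand at its 3′ end, and Gzmk measured 0 CPM at P21 and up to 0.639 CPM in saline. Dll4 overlaps Gm14207 on the opposite strand, which measured 15.0 to 16.1 CPM at P21 and 7.0 to 18 CPM in saline. Whether the counting used strand is not given in the sources used here, so reads of such pairs may have been split between them.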

How the data were processed

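Droplet-based single-cell libraries (10x Chromium) were made from PFC tissue. Per the labels, the authors aligned reads to mm9 and counted UMIs per gene with Cell Ranger against Ensembl gene models of NCBIM37 and clustered with Seurat 2.1.0. The deposited matrices hold raw counts for 26145 genes, and the authors' table of cells gives each retained cell its library, class and cluster. That table also lists a mitochondrial share, which was not used. P21 cells had been named by the authors from the P60 clusters. The authors left likely doublets out of their table of cells, and none were called anew. The deposited matrices hold further barcodes, which were not used.

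Here 13 mitochondrial and 143 ribosomal protein genes (8.83% to 11.1% of a library's UMIs) were left out, as in the study. Counts were summed per library and class where a library had at least 10 cells. edgeR 4.0.16 (R 4.3.3; filterByExpr, TMM, robust quasi-likelihood) was fitted to 3 P21 and 6 saline libraries, and to all 12 P60 libraries with 1 mean per treatment and time point. Genes were called at an adjusted p below 0.05 (Benjamini-Hochberg over all genes tested) and a change over 1.5-fold. DESeq2 1.42.0, its size factors, no low-count filter, no fold minimum, other sets of cells and libraries, and leaving out each library were the alternatives. The fits were tested first on simulated Endo counts in which 200 genes, not among the least expressed, carried a log2 change of 1. They recovered 68.5% of these for age, 52.5% at maintenance, 55.5% at 48 h, 66% at 15 days and 95% for the mean. Shares of cells were compared by exact permutation, with a smallest possible p of 0.0119 for age and 0.00926 for cocaine. Intervals and floors cover counting error only, with 3 UMIs as the floor for a count of 0.

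Genes named are the 10 members, the 3 nearest genes of each member by correlation (the nearest 1 is printed), receptor or ligand partners, and called genes of each list. The members and the gene lists were chosen with earlier results of these data known. By the methods each library pools 2 animals, and the labels name no further separation, so p-values measure the spread between libraries. The P21 animals named are too few for 3 such pools. P21 libraries may therefore share animals, and the P21 SDs and SEs may understate the spread between animals. Retained UMIs per library ranged from 8375172 to 42892922. Any 2 libraries shared at most 27 cell barcodes (median 6 over 105 pairs). In Endo cells fewer cells of a kind and less RNA per cell cannot be told apart from library sums alone. Titles and source give PFC, while a tissue tag reads NAc. A joined table of the same counts was not used.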

Additional observations from a re-analysis of the deposited data

Results flagged for a closer look

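Of 15 groups of 6 libraries that were examined, 3 held a library far from the others by Dixon's criterion. It flags about 1 group in 20 by chance when the 6 values come from 1 normal distribution. CPM over 3 time points, some on few UMIs, need not meet that, so 3 of 15 cannot be set against that rate. Angpt2 in Endo cells stood at 39.6 CPM in cocaine 48 h replicate 2, while the other 5 cocaine libraries held 4.69 to 10.2 CPM. That library also held the high venous list sum given above. Apln stood at 6.72 CPM in cocaine maintenance replicate 1, on 8 UMIs, while the other cocaine libraries held at most 0.521 CPM. Prnd stood at 2.40 CPM in saline 48 h replicate 2, on 2 UMIs, while the other saline libraries held at most 0.639 CPM. No difference between time points in the effect of cocaine on a member passed its test.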

How the results depend on the processing

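Aplnr, Apln, Esm1, Prnd and Ccbp2 gave too few UMIs in P60 Endo cells for cocaine to be tested. Over 180 alternative values of the member age differences, 166 stayed within the spread between replicates, 14 moved and 0 reversed. The alternative with no fold minimum changes only the rule for calls, so its values could not move. Kdr ranged from 1.19 to 1.48, Flt1 from −0.64 to −0.41, Angpt2 from 2.34 to 2.75, Apln from 5.28 to 6.21, Prnd from 5.64 to 6.93, Dll4 from 0.26 to 0.46 and Tek from −0.31 to −0.07. Flt1 fell under 1.5-fold with DESeq2, its size factors, no filter or the subcluster alternative (each −0.58), with P21 libraries 2 and 3 summed or only the 15-day saline libraries (each −0.57), without saline maintenance replicate 2 (−0.58) or P21 replicate 2 (−0.54), and in cells of the endothelial cluster, chosen after seeing the data (−0.41). The 450 cocaine values of members kept their call.

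Over all genes, the age count of 1418 became 597 with only the 15-day saline libraries and 1039 with P21 libraries 2 and 3 summed. It ranged from 961 to 1553 with each library left out. Cocaine counts with no low-count filter were 7 at maintenance, 29 at 48 h, 103 at 15 days, 17 for the mean and 37 for treatment by time point. The 48 h count was 1 without mural-dominant cells, an alternative chosen after seeing the data, and the 15-day count was 7 with DESeq2 and 24 with its size factors. With each library left out, counts ranged from 0 to 2 at maintenance, 0 to 22 at 48 h, 0 to 133 at 15 days, 0 to 26 for the mean and 0 to 38 for treatment by time point. The causes were not tested. The Endo share difference for cocaine ranged from −5.09 to −1.14 points. The Flt1 difference in inhibitory neurons, examined after seeing the data, was −1.74 with DESeq2 (no adjusted p given), −0.19 without cells holding 10 or more UMIs of the endothelial list and with no low-count filter (−1.65 with no filter alone), and −2.09 to −1.45 with each library left out. Restricting astrocytes to those of an astrocytic cluster, also chosen after seeing the data, moved the Apln age difference from −0.69 to −0.07, uncalled in both.

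Among members, single libraries turned cocaine directions that were never called: without cocaine 48 h replicate 2, Angpt2 at 48 h was −1.40, Tek 0.11, Kdr 0.04 and the Tek mean 0.04; without saline maintenance replicate 2, Angpt2 at maintenance was 0.38 and Tek −0.0027; without cocaine 15-day replicate 2 or saline 15-day replicate 1, Kdr at 15 days was 0.21 or 0.05. The Angpt2 mean turned to between 0.03 and 0.18 when any 1 of 4 libraries was left out (saline maintenance replicate 2, saline 48 h replicate 1, cocaine 48 h replicate 1 or saline 15-day replicate 1). The subcluster alternative left out 1 of 2 saline 15-day Endo cells with a neuronal subcluster label and kept the other. It left out no P21 cell, since P21 cells carry no subcluster. No paired analysis was possible because the labels give no number or animal shared between groups.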
